A study of Mus musculus with 8 samples.

Results

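The gasdermin genes of mouse were followed by RNA sequencing through epithelial cells sorted from skin epidermis, in a series on how epidermal clones expand and the tissue becomes fluid. The members are the rows of the deposited table whose gene name is Gsdma, Gsdma2, Gsdma3, Gsdmc, Gsdmc2, Gsdmc3, Gsdmc4 or Gsdmd, which gave 8 of its 32574 genes. Of these 8, 5 passed a filter on low values and were among the 18140 genes tested (Gsdma, Gsdma3, Gsdmc, Gsdmc2 and Gsdmd), while Gsdma2, Gsdmc3 and Gsdmc4 lay below it. The groups, each of 2 libraries, were Lrig1 ablation, Lrig1 control, K14 ablation and K14 control. Ablation mice carry the genotype named basal lineage ablation and control mice are wild type (WT). No agent, time after ablation, age or strain is named in the labels used here, nor whether K14 and Lrig1 stand for a driver, for cells that were sorted or for the lineage ablated. The keratin K14 belongs to basal cells of the epidermis, and the membrane protein Lrig1 to stem cells in the upper part of the hair follicle. Nothing in the labels ties the libraries of a group to separate animals, so the p-values measure the spread between these libraries, which may be technical.

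Gasdermins are held inactive by their own C-terminal part. When a protease cuts the linker, the freed N-terminal part inserts into the plasma membrane and assembles into pores, through which cytokines of the interleukin-1 family leave the cell and which can end in a lytic death called pyroptosis. Gasdermin D is the best-known member and is cut by caspase-1 and by caspase-11, which mouse Casp4 encodes. The gasdermin A genes are known from skin, and dominant mutations of Gsdma3 in mice cause hair loss with abnormal follicles and sebaceous glands. In human cells gasdermin C is cut by caspase-8, and the mouse genes Gsdmc2, Gsdmc3 and Gsdmc4 are known from the gut epithelium during worm infection.

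The mouse genome holds 3 gasdermin A genes side by side and 4 gasdermin C genes side by side, and how alike the copies are limits how their reads can be told apart. The gasdermin A genes all lie on the plus strand of chromosome 11 (GRCm38, GENCODE release M21) within 51.3 kb: Gsdma3 (ENSMUSG00000064224) at 98626360 to 98638226, Gsdma2 (ENSMUSG00000017211) at 98646759 to 98657964 and Gsdma (ENSMUSG00000017204) at 98664351 to 98677708. Their coding sequences are 89.1 to 91.5% identical. The gasdermin C genes all lie on the minus strand of chromosome 15 within 136 kb: Gsdmc (ENSMUSG00000079025) at 63775968 to 63808759, Gsdmc2 (ENSMUSG00000056293) at 63824346 to 63845177, Gsdmc3 (ENSMUSG00000055827) at 63857724 to 63878558 and Gsdmc4 (ENSMUSG00000055748) at 63891264 to 63912297. Gsdmc is 87.1 to 88.3% identical to the other three over the coding sequence, whereas Gsdmc2 and Gsdmc3 are 97.1% identical to each other. Gsdmd (ENSMUSG00000022575) lies alone on the plus strand of chromosome 15 at 75862327 to 75867408. No annotated gene overlaps any of the 8. Gsdmcl2, which is not among the 8, lies between Gsdmc3 and Gsdmc4, on the plus strand at 63880707 to 63890512.

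The first 60 coding bases are shown because they hold the start of the pore-forming part and make the 2 families visible. Capitals mark the positions that differ within a family, 5 among the gasdermin A genes and 7 among the gasdermin C genes; Gsdmc2, Gsdmc3 and Gsdmc4 are the same in this stretch.
Gsdma: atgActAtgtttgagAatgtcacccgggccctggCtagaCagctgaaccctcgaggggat
Gsdma2: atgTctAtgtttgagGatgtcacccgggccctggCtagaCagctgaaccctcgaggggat
Gsdma3: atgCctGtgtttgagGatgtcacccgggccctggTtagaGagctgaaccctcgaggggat
Gsdmc: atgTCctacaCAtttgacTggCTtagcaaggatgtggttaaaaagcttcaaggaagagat
Gsdmc2: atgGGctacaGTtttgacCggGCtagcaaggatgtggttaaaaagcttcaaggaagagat
Gsdmc3: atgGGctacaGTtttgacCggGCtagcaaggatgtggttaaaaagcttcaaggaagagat
Gsdmc4: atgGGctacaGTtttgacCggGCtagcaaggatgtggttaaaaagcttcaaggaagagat

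The copies separate better elsewhere, and the 60-base coding window with the most differences is shown for Gsdma with Gsdma3, which hold nearly all gasdermin A reads, and for Gsdmc2 with Gsdmc3, the most alike pair. Between Gsdma and Gsdma3, 21 bases differ in coding bases 608 to 667. Between Gsdmc2 and Gsdmc3, no window held more than the 11 differences in coding bases 819 to 878. Capitals mark the bases that differ within each pair.
Gsdma 608 to 667: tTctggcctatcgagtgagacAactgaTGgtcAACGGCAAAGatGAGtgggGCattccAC
Gsdma3 608 to 667: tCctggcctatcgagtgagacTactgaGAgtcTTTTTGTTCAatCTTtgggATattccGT
Gsdmc2 819 to 878: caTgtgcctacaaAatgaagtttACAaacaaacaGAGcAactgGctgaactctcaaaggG
Gsdmc3 819 to 878: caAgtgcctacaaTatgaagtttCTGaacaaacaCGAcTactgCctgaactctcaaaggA

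Of the 50-base windows in each gene's transcripts, those found in no other gene made up 91.7% for Gsdma, 94.9% for Gsdma2, 94.3% for Gsdma3, 83.9% for Gsdmc and 100% for Gsdmd. The share was lower for Gsdmc2 (48.7%), Gsdmc3 (54.0%) and Gsdmc4 (61.0%). No source used here tells how reads that fit several copies were counted, so the counts of Gsdmc2, Gsdmc3 and Gsdmc4 are uncertain, and those of the other A and C genes less so.

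The libraries held 6458636 to 11654135 reads in genes, and a floor of 3 reads equals a normalised read count of 2.12 to 4.23 depending on the library. The basal keratin genes Krt14 and Krt5 were abundant in all 8 libraries, with normalised read counts of at least 28052 and 29637. The control pairs were close to each other, with a chi-square per gene between the libraries of a pair of 2.58 in Lrig1 control and 1.57 in K14 control. The ablation pairs stood far apart, at 39.5 in Lrig1 ablation and 27.7 in K14 ablation, so the ablation values of the gasdermin genes are given per library, and their fold changes also with a library left out where that moved them most. In bulk RNA, fewer cells of a type and less RNA per cell cannot be told apart.

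Of the gasdermin A genes, Gsdma and Gsdma3 were abundant in Lrig1 control cells and scarce in K14 control cells, while Gsdma2 had few reads throughout. Gsdma, a copy known from the upper digestive tract and skin, had normalised read counts of 13.3 and 129.8 in Lrig1 ablation, 458 and 416 in Lrig1 control, 3.54 and 18.2 in K14 ablation, and 14.2 and 2.95 in K14 control. Both Lrig1 control libraries exceeded the other 6, the libraries of Lrig1 ablation lay far apart, and the 2 K14 groups overlapped. The means were 71.5 ± 82.3 in Lrig1 ablation, 437 ± 29.5 in Lrig1 control, and 10.9 ± 10.4 in K14 ablation against 8.59 ± 7.97 in K14 control (SD, n = 2 each). Lrig1 control ranked first, and the other 3 groups overlapped with one another.

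Gsdma3, the copy whose mutations cause hair loss, ranked the groups in the same order by mean. It had 31.1 and 83.6 normalised reads in Lrig1 ablation, 121 and 113 in Lrig1 control, 3.54 and 25.7 in K14 ablation, and 3.05 and 3.94 in K14 control. Only the 2 K14 groups overlapped. Gsdma2, the third copy, had 17 reads in all 8 libraries together, 7 of them in Lrig1 ablation 2, 9 in the Lrig1 control pair and 1 in K14 ablation 2. Its normalised read counts were 0 and 5.57 in Lrig1 ablation, 5.82 and 5.64 in Lrig1 control, 0 and 1.07 in K14 ablation, and 0 in both K14 control libraries. The Lrig1 control mean of Gsdma2 was 1.91-fold a floor of 3 reads per library in K14 control. It rests on 5 and 4 reads, and the value leaves out counting error. Of its 3214 windows of 50 bases, Gsdma2 shares 155 with Gsdma, which had 393 and 295 reads in those libraries. Whether reads of Gsdma were counted for Gsdma2 was not tested.

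Reads of the gasdermin C genes fell mostly on Gsdmc: over the 8 libraries it had 434, Gsdmc2 had 65, and Gsdmc3 and Gsdmc4 had 6 each. Gsdmc had normalised read counts of 39.0 and 20.7 in Lrig1 ablation, 105 and 86.0 in Lrig1 control, 97.6 and 37.5 in K14 ablation, and 23.4 and 16.7 in K14 control. Within Lrig1, both ablation libraries lay below both control libraries, and within K14 both ablation libraries lay above both control libraries. The means were 29.9 ± 13.0 in Lrig1 ablation, 95.4 ± 13.3 in Lrig1 control, and 67.6 ± 42.5 in K14 ablation against 20.1 ± 4.68 in K14 control (SD, n = 2 each). Ranked by mean, Lrig1 control overlapped with K14 ablation, K14 ablation with Lrig1 ablation, and Lrig1 ablation with K14 control.

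Gsdmc2 was highest in 1 library, K14 ablation 1. Its normalised read counts were 10.65 and 1.59 in Lrig1 ablation, 3.49 and 0 in Lrig1 control, 28.3 and 4.29 in K14 ablation, and 2.03 and 1.97 in K14 control. All groups but K14 ablation overlapped with one another, and K14 ablation overlapped with Lrig1 ablation. Of the 6 Gsdmc3 reads, 5 came from K14 ablation 1 and 1 from Lrig1 ablation 1. The 6 Gsdmc4 reads were spread over 5 libraries of all 4 groups, at 0 to 1.775 normalised reads, below the floor throughout.

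Gsdmd, the gasdermin cut by inflammatory caspases, was lowest in Lrig1 control. It had 19.5 and 22.3 normalised reads in Lrig1 ablation, 5.82 and 11.3 in Lrig1 control, 13.4 and 66.5 in K14 ablation, and 24.4 and 21.7 in K14 control. Both Lrig1 control libraries lay below the other 6, and K14 ablation held both the highest library of all and the lowest of the K14 libraries. The means were 20.9 ± 1.96 in Lrig1 ablation, 8.55 ± 3.86 in Lrig1 control, and 39.95 ± 37.5 in K14 ablation against 23.0 ± 1.92 in K14 control (SD, n = 2 each). The 3 groups other than Lrig1 control overlapped. Lrig1 control lay apart by library but passed in no test of the fit of all 4 groups given below. In a fit of the 2 control groups alone it passed against K14 control (limma adjusted p = 0.0130), but that fit called 7323 of 17057 tested genes.

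**Figure D1:**
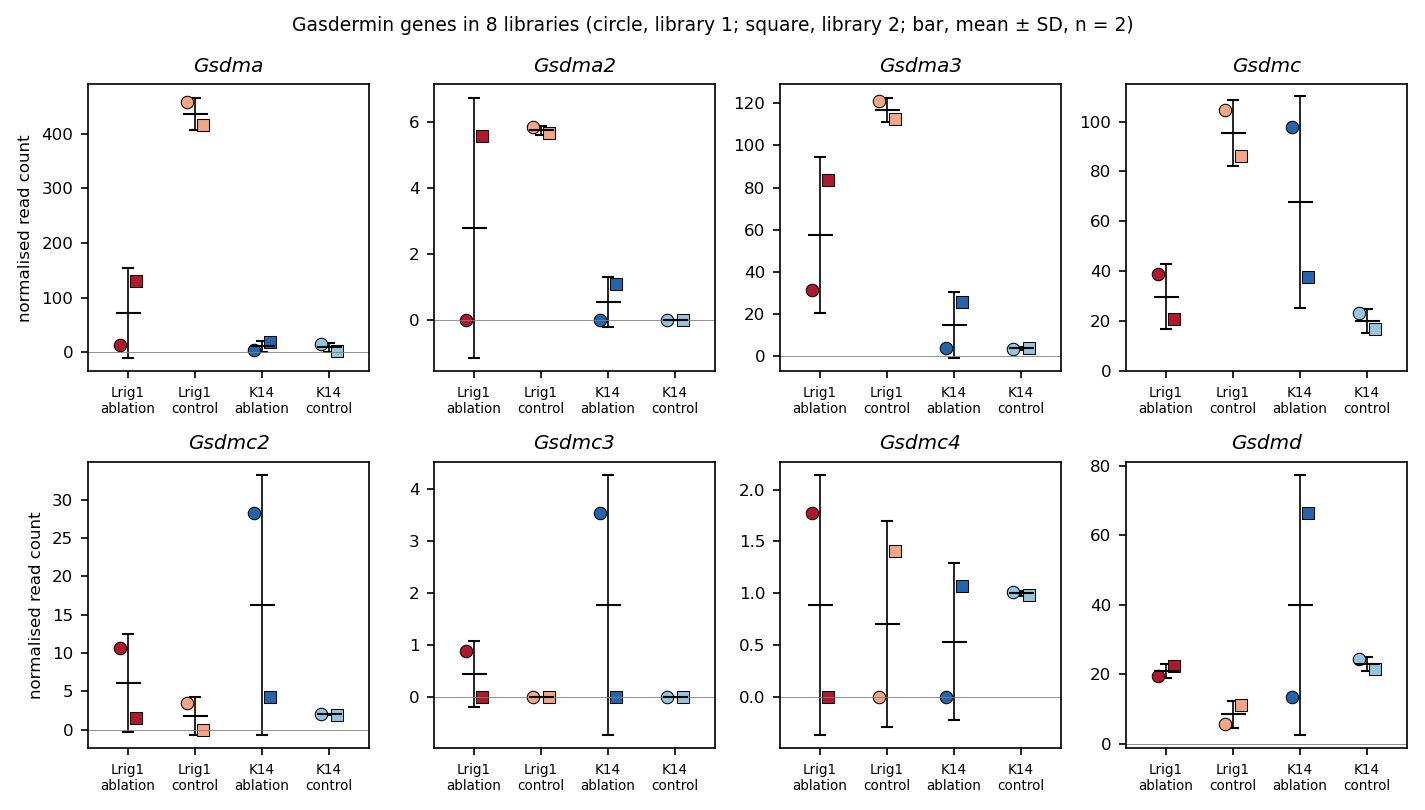
Normalised read count of each of the 8 gasdermin genes in each library, by group, on a linear axis of its own for each gene; circles and squares are the 2 libraries of a group and black bars the group mean ± SD (n = 2). Gsdma and Gsdma3 are highest in both Lrig1 control libraries (458 and 416, and 121 and 113), and the libraries of both ablation groups lie apart for Gsdma and Gsdmc.

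Levels can be set against each other only per length, here as normalised reads per kb of annotated exon. In Lrig1 control the order was Gsdma (160 ± 10.8), Gsdma3 (72.4 ± 3.64), Gsdmc (39.7 ± 5.52), Gsdmd (3.6 ± 1.62) and Gsdma2 (1.86 ± 0.0417; SD, n = 2), and no neighbours in it overlapped, though the last pair rests on 4 to 8 reads per library. In Lrig1 ablation, Gsdma3 (19.2 and 51.8) was above Gsdma (4.88 and 47.6) beyond counting error in the first library, and within counting error of it in the second. Equal levels per kb of the 2 genes would give Gsdma 62.8% of their reads, a share that lies inside the 95% Wilson interval of Lrig1 ablation 2, above that of Lrig1 ablation 1 and below those of both Lrig1 control libraries. In K14 ablation, Gsdmc was highest in the first library (40.6) and Gsdmd in the second (28.0). In K14 control, Gsdmd (9.68 ± 0.807) and Gsdmc (8.34 ± 1.95) did not differ beyond their spread, and Gsdma (3.15 ± 2.92) and Gsdma3 (2.16 ± 0.390) were lower. Dfna5, which encodes gasdermin E and is not among the 8 genes, stood at 15.0 ± 5.42 per kb in Lrig1 ablation and 9.31 ± 0.0184 in Lrig1 control. In K14 ablation it stood at 9.05 ± 2.20 and in K14 control at 9.14 ± 0.299. Its annotated exons cover 12742 bases, against 1614 to 3083 for the 8 genes. How much of that length is transcribed here was not tested, so its level per kb may be understated.

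The share of each family in all gasdermin reads needs no size factor, though it is a share of reads and not of levels per length. Gasdermin A genes gave 38.2% of 131 gasdermin reads in Lrig1 ablation 1 (95% Wilson interval 30.3 to 46.7) and 83.1% of 331 in Lrig1 ablation 2 (78.7 to 86.7), against 83.7% of 600 (80.5 to 86.4) and 84.4% of 449 (80.8 to 87.5) in Lrig1 control. In K14 ablation they gave 4.72% of 212 reads (2.58 to 8.46) and 29.2% of 144 (22.4 to 37.1), against 25.4% of 67 (16.5 to 36.9) and 14.3% of 49 (7.10 to 26.7) in K14 control. The libraries of each ablation pair thus stood apart, and the gasdermin A share of Lrig1 ablation 2 lay within counting error of that of Lrig1 control. Gasdermin C genes took 45.0% and 8.46% in Lrig1 ablation, 15.5% and 13.8% in Lrig1 control, 86.3% and 27.8% in K14 ablation, and 38.8% and 40.8% in K14 control. Gsdmd took 16.8% and 8.46% in Lrig1 ablation, against 0.833% and 1.78% in Lrig1 control, and 8.96% and 43.1% in K14 ablation, against 35.8% and 44.9% in K14 control. The intervals cover counting error only, because PCR copies of a molecule cannot be told from separate molecules here.

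**Figure D2:**
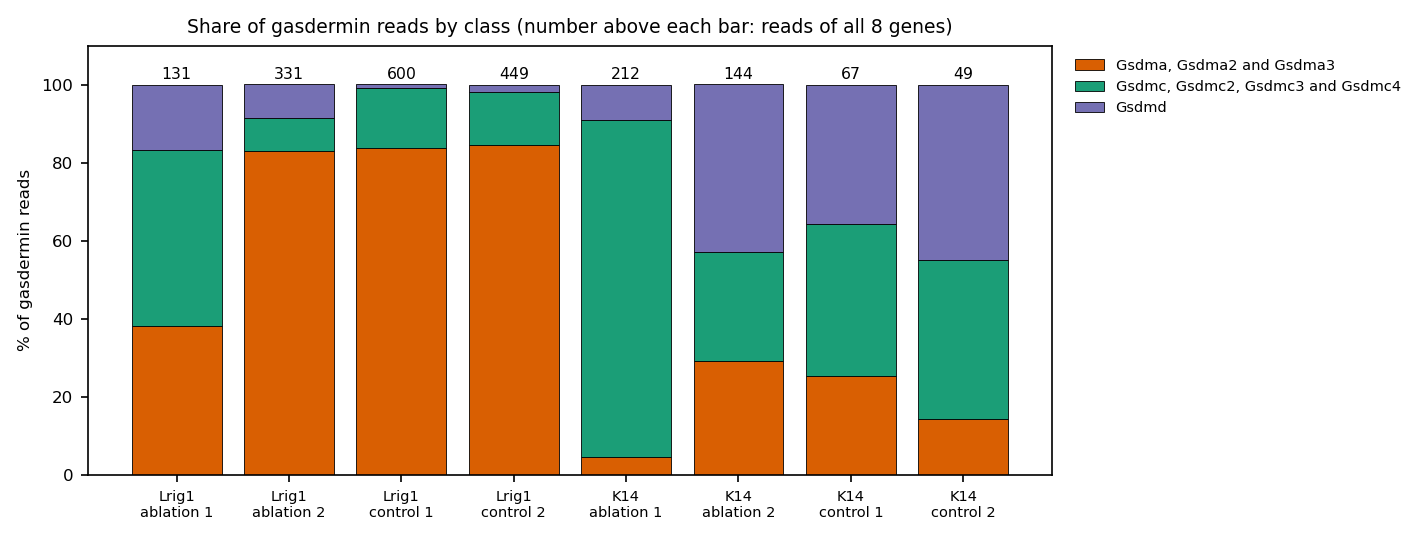
Share of all gasdermin reads, in percent, taken by the gasdermin A genes, the gasdermin C genes and Gsdmd in each library, with the number of gasdermin reads per library. Gasdermin A genes take 83.7% and 84.4% in Lrig1 control, while gasdermin C genes take 86.3% in K14 ablation 1.

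Within the gasdermin A pair, Gsdma made up a smaller share of the reads in both Lrig1 ablation libraries than in either Lrig1 control library. Gsdma gave 30.0% (95% Wilson interval 19.1 to 43.8, of 50 reads) and 60.8% (54.9 to 66.5, of 268) of the reads of Gsdma and Gsdma3 together in Lrig1 ablation. In Lrig1 control it gave 79.1% (75.3 to 82.4, of 497) and 78.7% (74.2 to 82.5, of 375). Neither ablation interval reached a control interval, but the 2 ablation libraries also differed from each other beyond counting error. In K14 the same share was 50% and 41.5% in ablation, from 10 and 41 reads, and 82.4% and 42.9% in control, from 17 and 7 reads. The interval of K14 ablation 2 (27.8 to 56.6) lay below that of K14 control 1 (59.0 to 93.8). All other K14 ablation and control intervals overlapped, so the groups did not separate. No test over libraries was made for this share.

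The comparison of Lrig1 control with K14 control asks how wild-type cells of the 2 labels differ, and it was the one in which gasdermin genes passed. Gsdma was higher by 5.82 ± 1.096 on the log2(value + 1) scale (SE; limma adjusted p = 0.0177). Gsdma3 was higher by 4.72 ± 0.79 (adjusted p = 0.0125) and Gsdmc by 2.21 ± 0.49 (adjusted p = 0.0321, 4.61-fold on that scale) in the same limma fit. The K14 control libraries held 14 and 3 reads of Gsdma and 3 and 4 of Gsdma3, at or near the floor of 3, so the size of both differences depends on the pseudocount: with pseudocounts of 0.5 and 4 it was 5.94 and 5.29 for Gsdma and 4.89 and 4.01 for Gsdma3. Thus 3 of the 5 tested gasdermin genes were higher and none lower, where 6.52% of the 18140 tested genes were called higher and 8.79% either way. The median log2 difference of the 5 was 2.21, against -0.00492 over all tested genes. Gsdmd was lower by 1.39 ± 0.68, which did not pass (limma adjusted p = 0.256; 95% interval -2.95 to 0.17), and Gsdmc2 differed by -0.50 ± 1.11 (adjusted p = 0.836). Gsdma, Gsdma3 and Gsdmc were also called in all 10 alternatives other than those with a library left out. With a control library left out, the lone one is assumed to vary like the other groups, and the ablation pairs stood far apart. Each of the 3 calls was lost when any 1 of the 4 control libraries was left out: the limma adjusted p then ran over 0.0730 to 0.149 for Gsdma, 0.0877 to 0.115 for Gsdma3 and 0.148 to 0.220 for Gsdmc, with log2 differences of at least 4.84, 4.58 and 1.98. Calls over the whole table, 1594 in the full fit, then numbered 91 and 96 without a K14 control library and 2 and 1 without an Lrig1 control library.

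Setting Lrig1 ablation against Lrig1 control asks what ablation changed in the cells labelled Lrig1. None of the 5 tested gasdermin genes passed, where 4.06% of the 18140 tested genes did (limma; 2 of the 5 and 20.1% of all genes had an unadjusted p under 0.05; edgeR called 0 of the 5 and DESeq2 1). Gsdma had a log2 fold change of -3.34 ± 1.096 (SE; limma adjusted p = 0.139; 95% interval -5.86 to -0.82) and Gsdmc of -1.70 ± 0.49 (adjusted p = 0.100; -2.83 to -0.57). Gsdma3 had -1.18 ± 0.79 (adjusted p = 0.460), Gsdmc2 1.37 ± 1.11 (adjusted p = 0.545) and Gsdmd 1.26 ± 0.68 (adjusted p = 0.352). The median of the 5 was -1.18, against -0.0172 over all tested genes. Gsdmc2 reached the filter in only 2 libraries, 1 of each ablation group, so its values among the tested genes rest on libraries where it is high.

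The sizes hung on single libraries. Gsdma changed by -4.93 on the log2 scale without Lrig1 ablation 2 (limma adjusted p = 0.0250), and it was -1.74 without Lrig1 ablation 1 (adjusted p = 0.269). Gsdma3 was -1.88 without Lrig1 ablation 2 and -0.48 without Lrig1 ablation 1 (limma adjusted p = 0.252 and 0.752). Gsdmc2 was 0.29 without Lrig1 control 2 and 2.46 without Lrig1 control 1 or Lrig1 ablation 2, and it was not tested without Lrig1 ablation 1 or K14 ablation 1, where it no longer reached the filter. Gsdmd was 0.83 without Lrig1 control 1 and 1.68 without Lrig1 control 2. Gsdmc had the same sign in both ablation libraries, and DESeq2 called it at -1.67 (adjusted p = 0.0421). By limma it passed without K14 ablation 1 (adjusted p = 0.0480), K14 ablation 2 (0.0459) or Lrig1 ablation 1 (0.0478), and over all alternatives its adjusted p ran over 0.0421 to 0.423.

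For the cells labelled K14, the same question is asked by K14 ablation against K14 control. None of the 5 tested gasdermin genes passed, where 0.187% of the 18140 tested genes did (limma; 1 of the 5 and 12.8% of all genes had an unadjusted p under 0.05; edgeR and DESeq2 called 0 of the 5). Gsdmc had a log2 fold change of 1.57 ± 0.49 (SE; limma adjusted p = 0.273; 95% interval 0.44 to 2.70). Gsdmc2 had 2.05 ± 1.11 (adjusted p = 0.478), Gsdma3 1.30 ± 0.79 (adjusted p = 0.526), Gsdmd 0.38 ± 0.68 (adjusted p = 0.848) and Gsdma 0.27 ± 1.096 (adjusted p = 0.939). All 5 values were positive, with a median of 1.30 against -0.00177 over all tested genes. Gsdmc2 among them reached the filter only in ablation libraries, so the filter favoured its positive sign, also in that median. The sign of 2 of the 5, Gsdmd and Gsdma, turned when 1 library was left out. Without K14 ablation 2, Gsdmd stood at -0.73 and Gsdma at -0.77, and Gsdma3 at 0.02, while Gsdmc stood at 2.25 and Gsdmc2 at 3.29 without that library. Without K14 ablation 1, Gsdmc stood at 0.89 and Gsdma3 at 2.58.

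The effects of ablation in Lrig1 and in K14 were set against each other in the same fit, in which each effect keeps its own control pair. Gsdmc had the lowest p of the 5: its Lrig1 effect minus its K14 effect was -3.27 ± 0.70 on the log2 scale (SE; limma adjusted p = 0.101; 95% interval -4.87 to -1.67), which did not pass. None of the 5 passed, where 0.198% of all tested genes did (limma; 2 of the 5 and 15.0% of all genes had an unadjusted p under 0.05; edgeR called 0 of the 5 and DESeq2 called Gsdmc, at -3.43, adjusted p = 0.00278). Gsdma differed by -3.605 ± 1.55 (limma adjusted p = 0.329) and Gsdma3 by -2.48 ± 1.12 (adjusted p = 0.350). Gsdmc2 differed by -0.68 ± 1.57 (adjusted p = 0.872) and Gsdmd by 0.88 ± 0.96 (adjusted p = 0.706). With 1 library left out, this difference ran over -5.20 to -2.01 for Gsdma, the ends being those without Lrig1 ablation 2 and without Lrig1 ablation 1. For Gsdma3 it ran over -3.76 to -1.20, without K14 ablation 1 and without K14 ablation 2. Limma called Gsdmc without K14 ablation 2 (-3.95, adjusted p = 0.0437) or without Lrig1 ablation 1 (-3.71, adjusted p = 0.0265).

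Between the ablation groups, none of the 5 passed, where 0.667% of all tested genes did (limma; 1 of the 5 and 16.4% of all genes had an unadjusted p under 0.05; edgeR and DESeq2 called 0 of the 5). Lrig1 ablation minus K14 ablation was 2.24 ± 0.79 for Gsdma3 (SE; limma adjusted p = 0.234; 95% interval 0.42 to 4.06) and 2.21 ± 1.096 for Gsdma (adjusted p = 0.357). It was -1.06 ± 0.49 for Gsdmc (adjusted p = 0.329), -1.18 ± 1.11 for Gsdmc2 (adjusted p = 0.606) and -0.51 ± 0.68 for Gsdmd (adjusted p = 0.725). Limma called Gsdma without Lrig1 ablation 1 (3.81, adjusted p = 0.0360) and Gsdma3 without K14 ablation 2 (3.52, adjusted p = 0.0463). This comparison and the others share libraries, so their values are not independent.

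**Figure D3:**
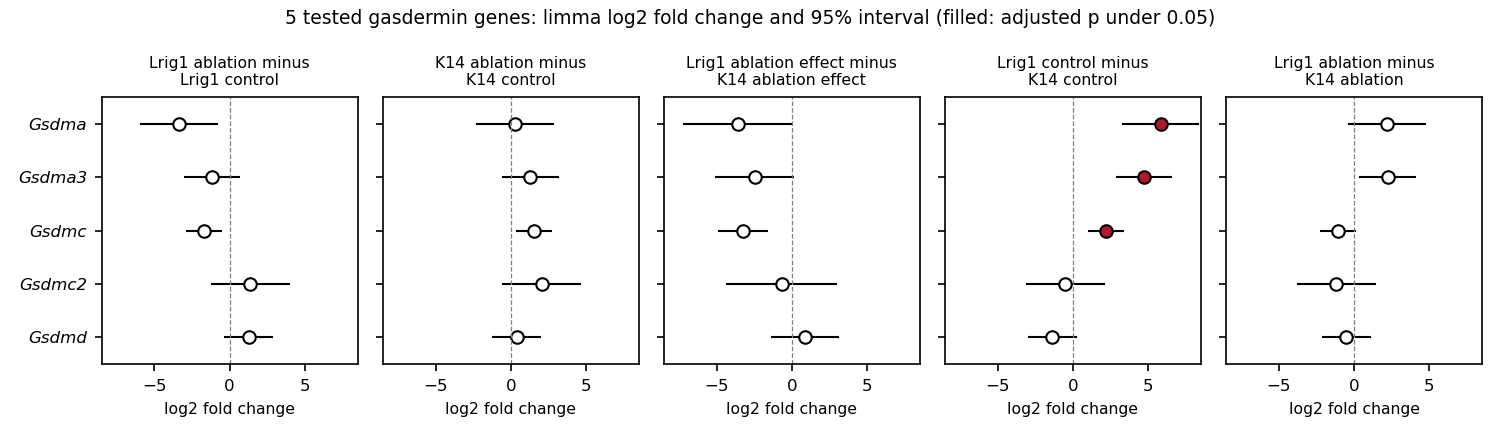
Log2 fold change of the 5 tested gasdermin genes in each comparison, on the log2(value + 1) scale, with 95% intervals from the limma fit; filled points passed an adjusted p of 0.05. Gsdma, Gsdma3 and Gsdmc passed in Lrig1 control against K14 control (5.82, 4.72 and 2.21), and Gsdmc lies on opposite sides of 0 in the 2 ablation comparisons (-1.70 and 1.57).

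Genes whose profile over the 8 libraries was closest to that of a gasdermin gene were ranked by the root-mean-square difference of their centred log2 values, among 11715 tested genes with a mean of at least 50; only Gsdma and Gsdmc reach that mean. For Gsdma the closest were Fam26e (0.601), Klk7 (0.631), a protease that loosens the horny layer, and Sprr4 (0.675), a small proline-rich protein of the cornified envelope. Klk7 had 89.6 and 663 normalised reads in Lrig1 ablation, 2019 and 2072 in Lrig1 control, 11.3 and 41.8 in K14 ablation, and 43.7 and 34.5 in K14 control. As with Gsdma, both Lrig1 control libraries were highest and Lrig1 ablation 2 lay above Lrig1 ablation 1. For Gsdmc the closest were Sh3kbp1 (0.332), an adaptor in receptor endocytosis, Dsc2 (0.344), a cadherin of desmosomes, and Sh3bgrl2 (0.461). Dsc2 had 322 and 219 normalised reads in Lrig1 ablation, 570.4 and 639 in Lrig1 control, 662 and 301 in K14 ablation, and 189 and 223 in K14 control. The order of the libraries within both ablation pairs was that of Gsdmc. These rankings describe the 8 libraries, which share their 4 groups, and carry no test.

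**Figure D4:**
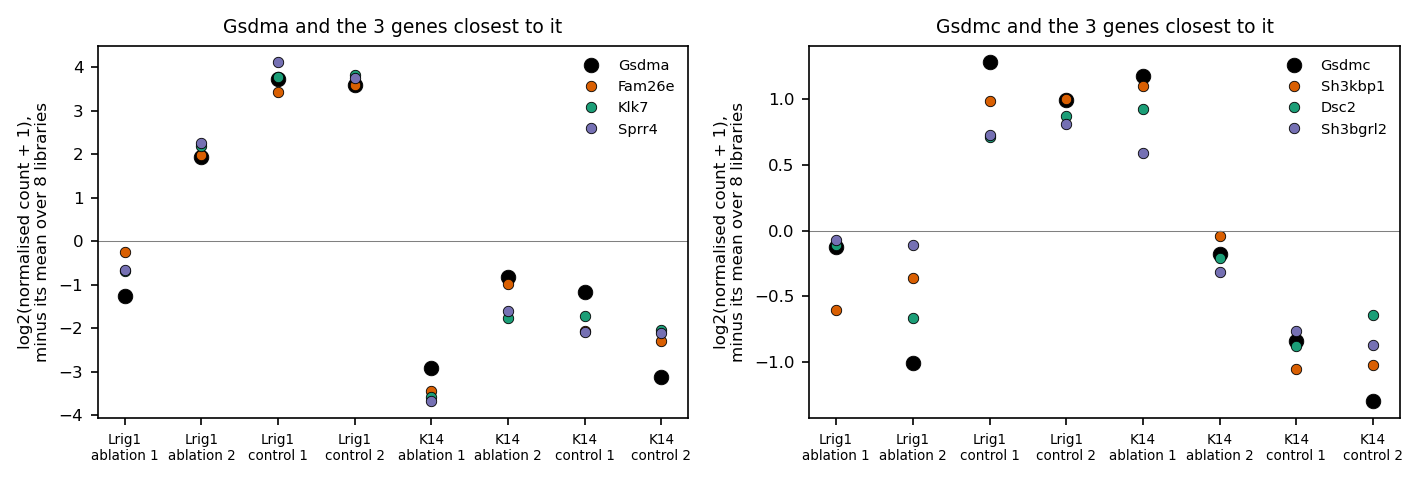
Profiles of Gsdma and Gsdmc over the 8 libraries, each with its 3 closest genes, as log2(normalised read count + 1) minus the gene's mean. The 3 genes drawn with Gsdma lie 0.601 to 0.675 from it in root-mean-square difference and the 3 drawn with Gsdmc lie 0.332 to 0.461 from it.

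The protein-coding genes beside the clusters were read in the same fit. Ormdl3 and Psmd3, which flank the gasdermin A genes, differed between Lrig1 control and K14 control by 0.07 and 0.29 on the log2 scale and between Lrig1 ablation and Lrig1 control by -0.24 and -0.28, none of them passing (limma adjusted p = 0.882, 0.425, 0.553 and 0.482). Fam49b and Asap1, next to Gsdmc4, also passed in neither. Myc, the nearest on the Gsdmc side, lies at 61985391 to 61990374, far from Gsdmc at 63775968 to 63808759. Myc was lower in Lrig1 control than in K14 control, with a log2 difference of -0.89 (limma adjusted p = 0.0227), opposite in sign to Gsdmc. Mroh6, next downstream of Gsdmd, had a log2 fold change of -2.17 in Lrig1 ablation (limma adjusted p = 0.0402), where Gsdmd stood at 1.26.

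The genes that act with gasdermins were taken as a list of 58 in the table, of which 42 were tested. In Lrig1 ablation 4 of the 42 fell and none rose, where 3.30% of all tested genes were called lower. The median of the list was -0.395, against -0.0172 over all tested genes. In Lrig1 control against K14 control 6 were higher and 1 lower, where 6.52% of all tested genes were called higher and 2.27% lower. The median of the list there was 0.129, against -0.00492 over all tested genes. These shares are also the background for the counts by role below. Of the 42, Il1f8 and Nlrp3 reached the filter only through Lrig1 control, where they are high; among the other 40, 3 fell in Lrig1 ablation, and 5 were higher and 1 lower in Lrig1 control than in K14 control. In K14 ablation none of the 42 passed by limma (edgeR and DESeq2 0), where 0.187% of all tested genes did. There 5 had an unadjusted p under 0.05, against 12.8% of all tested genes. In Lrig1 ablation against K14 ablation none passed (edgeR 0, DESeq2 5), where 0.667% of all did, and 11 had such a p, against 16.4%. For the difference of effects none passed (edgeR 0, DESeq2 1), where 0.198% of all did, and 8 had such a p, against 15.0%.

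Of the other gasdermin genes, Dfna5 had 142 and 239.6 normalised reads in Lrig1 ablation, 119 and 118 in Lrig1 control, 135 and 95.4 in K14 ablation, and 114 and 119 in K14 control. It passed in no comparison, with log2 fold changes of 0.63 ± 0.28 in Lrig1 (limma adjusted p = 0.258) and -0.04 ± 0.28 in K14 (adjusted p = 0.971). Dfnb59, which encodes pejvakin, and Gsdmcl2 stayed at or below 2.95 normalised reads in every library.

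No protease that cuts gasdermins passed in any comparison, of 7 tested. Casp1, which cuts gasdermin D downstream of inflammasomes, had a log2 fold change of 0.06 ± 0.23 in Lrig1 ablation (limma adjusted p = 0.926) and 0.35 ± 0.23 in K14 ablation (adjusted p = 0.568). Casp4 had 0.42 ± 0.53 in Lrig1 ablation (limma adjusted p = 0.714) and -0.77 ± 0.53 in K14 ablation (adjusted p = 0.575). Casp8, which cuts human gasdermin C, was nearly level at 207 to 256 normalised reads in all 8 libraries.

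Among inflammasome sensors and adaptors, 9 of 19 were tested and Pycard, the adaptor that joins sensors to caspase-1, was the one that fell in Lrig1 ablation. It had 583 and 483 normalised reads in Lrig1 ablation, 834 and 888 in Lrig1 control, 568 and 639 in K14 ablation, and 557 and 573 in K14 control. Pycard changed in Lrig1 ablation by -0.70 ± 0.15 (SE; limma adjusted p = 0.0444), and Lrig1 control exceeded K14 control by 0.61 ± 0.15 (adjusted p = 0.0442). Nek7, a kinase that the NLRP3 inflammasome needs, was higher in Lrig1 control than in K14 control by 0.86 ± 0.13 (limma adjusted p = 0.00819). All 9 had negative log2 fold changes in Lrig1 ablation, 8 of them without passing, and Nlrp3 among them was tested only because of its level in Lrig1 control. Gbp2, Gbp3, Gbp5 and Gbp7 among them lie close together on chromosome 3, and their values may not be independent. In the same comparison all 7 tested proteases had positive values, without passing. Over the 42 tested pathway genes 15 values were positive and 27 negative, and the signs were not tested.

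Of the cytokines that leave through gasdermin pores or as a result of lysis, 2 of 6 tested fell in Lrig1 ablation, 1 of which, Il1f8, reached the filter only through Lrig1 control and had to differ from it. Il1f8, the older symbol of the gene for interleukin-36 beta, had 0.887 and 1.59 normalised reads in Lrig1 ablation, 37.3 and 29.6 in Lrig1 control, 2.83 and 2.14 in K14 ablation, and 3.05 and 1.97 in K14 control. Only the Lrig1 control pair stood clear of the floor of 3 reads, and the Lrig1 ablation libraries held 1 and 2 reads, so that the size of the change depends on the pseudocount. Its log2 fold change in Lrig1 ablation was -3.95 ± 0.54 (SE; limma adjusted p = 0.0106), and Lrig1 control was above K14 control by 3.30 ± 0.54 (adjusted p = 0.0113).

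Il1b, the classic cargo of gasdermin D pores, had 5.33 and 10.3 normalised reads in Lrig1 ablation, 44.2 and 42.3 in Lrig1 control, 15.6 and 10.7 in K14 ablation, and 11.2 and 6.89 in K14 control. It fell by 2.385 ± 0.46 on the log2 scale in Lrig1 ablation (limma adjusted p = 0.0321) and was higher in Lrig1 control than in K14 control by 2.175 ± 0.46 (adjusted p = 0.0274). Il33, an alarmin of keratinocyte nuclei, was lower in Lrig1 control than in K14 control, at -1.57 ± 0.38 (limma adjusted p = 0.0428). Il1a and Il18 passed nowhere, with log2 fold changes of -0.90 ± 0.33 (adjusted p = 0.179) and -0.44 ± 0.43 (adjusted p = 0.628) in Lrig1 ablation.

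Of the genes of membrane rupture and repair, 1 of 6 tested fell in Lrig1 ablation. Chmp4b, a subunit of the ESCRT-III complex that pinches off damaged membrane, had 793 and 698 normalised reads in Lrig1 ablation, 1424 and 1369 in Lrig1 control, 715 and 922 in K14 ablation, and 693 and 741 in K14 control. Its log2 fold change in Lrig1 ablation was -0.91 ± 0.16 (SE; limma adjusted p = 0.0240), and Lrig1 control exceeded K14 control by 0.96 ± 0.16 (adjusted p = 0.0125). Ninj1, which ruptures the plasma membrane after pores have formed, had -0.10 ± 0.31 in Lrig1 ablation (limma adjusted p = 0.901) and 0.43 ± 0.31 in K14 ablation (adjusted p = 0.591). Of 9 tested inhibitors and regulators, Zdhhc9, a palmitoyltransferase, was higher in Lrig1 control than in K14 control by 0.64 ± 0.16 (limma adjusted p = 0.0496). None of the 4 tested genes of linked cell death (Ripk1, Ripk3, Mlkl and Fadd) passed in any comparison. With any 1 of the 4 control libraries left out, 0 pathway genes were called between the control groups, and in Lrig1 ablation 1 was called without either K14 control library and 0 without either Lrig1 control library. Without 1 of the 4 ablation libraries, 8 to 11 were called in Lrig1 ablation and 11 to 14 between the control groups.

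**Figure D5:**
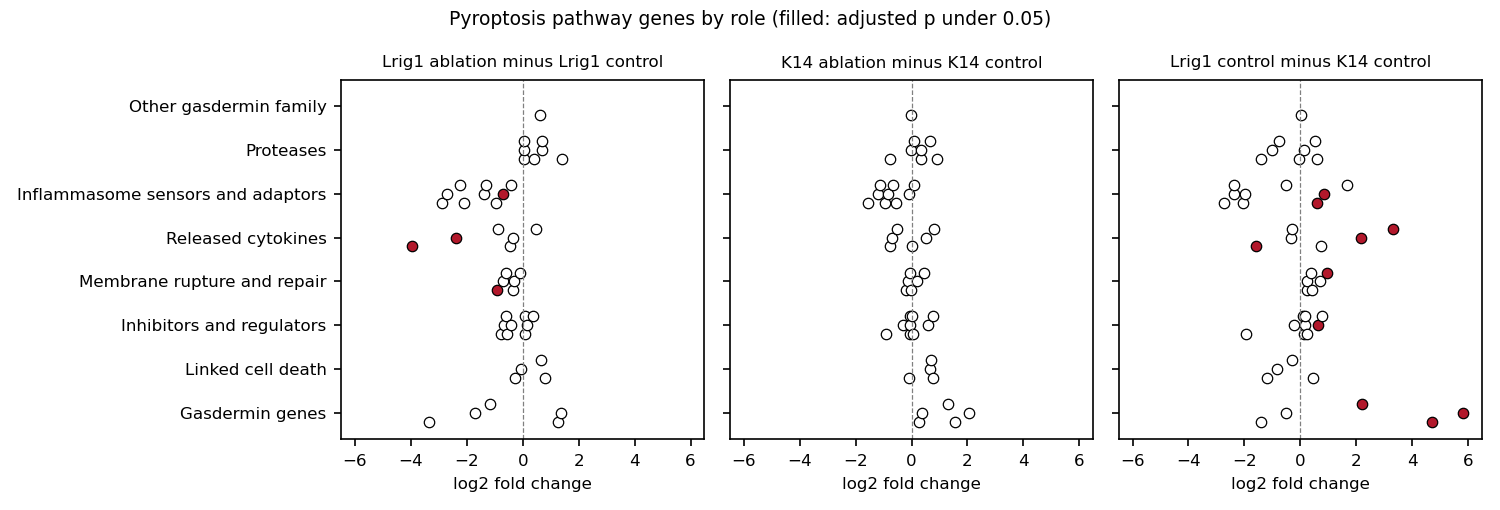
Log2 fold changes of the tested genes of the gasdermin pathway, by role, with the 5 tested gasdermin genes in the bottom row, in Lrig1 ablation against Lrig1 control, K14 ablation against K14 control and Lrig1 control against K14 control; filled points passed an adjusted p of 0.05. The 4 filled points of the first panel (Chmp4b, Il1b, Il1f8 and Pycard) lie below 0, the second panel has none, and in the third 6 pathway genes and 3 gasdermin genes lie above 0 and Il33 below.

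Several lists of markers of other epithelial compartments and of other cell types moved with these results. The 10 suprabasal markers (Krt1, Krt10, Ivl, Lor and others) summed to 35300 and 34150 normalised reads in Lrig1 ablation, 110500 and 124800 in Lrig1 control, 82240 and 56960 in K14 ablation, and 72620 and 67830 in K14 control. Of the 9 tested, 6 fell in Lrig1 ablation and 5 were higher in Lrig1 control than in K14 control (limma). Over all tested genes, 3.30% fell and 6.52% were higher in these comparisons, which is the background for the marker lists below too. The 6 upper hair follicle markers summed to 15760 and 30520 in Lrig1 ablation, 49730 and 51960 in Lrig1 control, 8229 and 14260 in K14 ablation, and 7301 and 7423 in K14 control, highest in Lrig1 control like Gsdma. Of these, 1 rose and 1 fell in Lrig1 ablation, and 4 were higher in Lrig1 control than in K14 control. Krt79 made up most of the Lrig1 control sum, at 28938 and 31438. Gata6, Lrig1 and Krt17 were also highest in both Lrig1 control libraries. Plet1 was nearly level between the control groups, at 3002 and 2910 in Lrig1 control against 2812 and 2752 in K14 control. Lgr6 went the other way and was lowest in both Lrig1 control libraries, at 346 and 364, against 926 and 904 in Lrig1 ablation.

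Hair matrix and cortex markers (8 in the table) summed to 278 to 417 in Lrig1 ablation, 1133 to 1806 in Lrig1 control, 471 to 506 in K14 ablation and 594 to 597 in K14 control, with 5 lower in Lrig1 ablation and 6 higher in Lrig1 control than in K14 control. Myeloid and Langerhans cell markers (7) summed to 156 to 166 in Lrig1 ablation, 835 to 1139 in Lrig1 control, 331 to 1386 in K14 ablation and 281 to 419 in K14 control, with 2 lower and 4 higher in the same 2 comparisons. The 6 basal markers summed to 84100 to 200900 in Lrig1 ablation, 100800 to 110000 in Lrig1 control, 197900 to 206700 in K14 ablation and 168200 to 171300 in K14 control. No basal marker passed in Lrig1 ablation, and 1 was higher in Lrig1 control than in K14 control, against the direction of the sums. Neutrophil markers (4) stayed low in every group, at 30.25 to 135 in sum, with Csf3r at 0 in both Lrig1 ablation libraries and Ly6g at 0 in both libraries of each control group. Endothelial markers (4) summed to 49.7 to 114 in Lrig1 ablation, 409 to 486 in Lrig1 control, 33.2 to 87.0 in K14 ablation and 54.2 to 70.1 in K14 control, with 3 lower in Lrig1 ablation and 3 higher in Lrig1 control than in K14 control, and Kdr at 0 in both K14 control libraries. Krt33a, Krt33b, Krt81 and Krt86 of the hair list, Cd207 and Emcn reached the filter only through Lrig1 control, where they are high. The filter thus favoured the hair, myeloid and endothelial counts in both comparisons, and the shares over all tested genes are no even background for them. The sebaceous gland markers (7) passed in neither, and their sums were 5041 to 7344 in Lrig1 ablation, 7239 to 7267 in Lrig1 control, 3157 to 16240 in K14 ablation and 12190 to 12230 in K14 control.

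Inner root sheath markers (7) summed to 335 to 451 in Lrig1 ablation, 725 to 888 in Lrig1 control, 219 to 253 in K14 ablation and 267 to 304 in K14 control, with 1 lower in Lrig1 ablation and 3 higher in Lrig1 control than in K14 control. Bulge and germ markers (5) summed to 607 to 1017 in Lrig1 ablation, 2898 to 3409 in Lrig1 control, 272 to 505 in K14 ablation and 1067 to 1088 in K14 control, with 1 lower and 2 higher in the same comparisons. Most of the Lrig1 control sum was Krt24, at 2638 and 3158, against 164 and 158 in Lrig1 ablation. Lgr5 went the other way, at 181 and 493 in Lrig1 ablation against 67.5 and 52.2 in Lrig1 control. Lhx2 and Cd34 were also higher in both Lrig1 ablation libraries than in both Lrig1 control libraries, none of them passing, and Fgf18 was near the floor. Fibroblast markers (5) summed to 147 to 247 in Lrig1 ablation, 144 to 221 in Lrig1 control, 105 to 110 in K14 ablation and 78.2 to 78.8 in K14 control, with none lower and 2 higher, and Lum at 0 in both K14 control libraries. The sum of the T cell markers (4) ran the other way between the control groups, at 94.7 to 287 in Lrig1 ablation, 214 to 226 in Lrig1 control, 558 to 716 in K14 ablation and 675 to 716 in K14 control. Nearly all of it was Thy1, at 217 and 207 in Lrig1 control against 668 and 698 in K14 control. Cd3e was lower in Lrig1 control too, Cd3g was higher there (3.49 and 4.23 against 0 and 0.985), and Trdc was below the floor in both. Melanocyte markers (4) summed to 194 to 345 over all libraries. Neither the T cell nor the melanocyte list held a call. The part of these cell types in the gasdermin results was not tested.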

How the data were processed

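RNA of sorted epithelial cells from mouse skin epidermis was sequenced in 8 libraries. Per the labels' protocols, polyA RNA was isolated with the RNeasy Micro kit and made into Ovation Solo libraries. The submitters' processing notes name Trimmomatic, STAR, Picard, HTSeq 0.11.1 and the build GRCm38 (mm10). Not given in the sources used here were settings, strand, annotation release and the source of the size factors. The deposited table holds a normalised signal per gene, which the authors made from read counts. Within a tolerance of 0.0011 on the normalised scale, 100% of values in each library are whole multiples of 1 step, so whole reads were recovered. Control columns were matched to libraries by title; the 4 ablation columns are named in other words and were matched to their group alone, so ablation numbers are those in the column names.

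The test, computed here, was limma 3.58.1 (R 4.3.3, variance trend) on log2(value + 1) in 1 fit of the 4 group means (4 residual and 4.13 prior degrees of freedom). Fold changes on this scale understate those of low genes. Genes needed a value worth 1 CPM in at least 2 libraries (18140 genes), and p-values were adjusted by Benjamini-Hochberg over all of them, with a threshold of 0.05. Alternatives were other pseudocounts, filters and scalings, edgeR 4.0.16 and DESeq2 1.42.0 on the recovered reads, the replicate number as a block, fits of only the groups compared, and each library left out, where a lone library is assumed to vary like the other groups. On the recovered reads edgeR called 588 genes in Lrig1 ablation, 32 in K14 ablation, 1396 between the control groups, 135 between the ablation groups and 32 for the difference of effects. The limma code was tested on simulated data.

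All 8 members were named, with pathway genes that passed in any comparison and Casp1, Casp4, Casp8, Pycard, Ninj1, Il1a, Il1b and Il18 in any case, and 1 further gene that is not reported here; the neighbouring genes are those next to the clusters. Members, pathway and marker lists were chosen with earlier results of these data known. Coordinates, exon lengths and sequences come from GENCODE M21.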

Additional observations from a re-analysis of the deposited data

Results flagged for a closer look

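Gsdmc was flagged because the 2 ablation effects point in opposite directions. Its libraries had normalised read counts of 39.0 and 20.7 in Lrig1 ablation, both below the 105 and 86.0 of Lrig1 control, and 97.6 and 37.5 in K14 ablation, both above the 23.4 and 16.7 of K14 control. The Lrig1 effect minus the K14 effect was -3.27 on the log2 scale, which limma did not call (adjusted p = 0.101, ranging over 0.00278 to 0.433 in the alternatives). The part of other cell types, and of the spread between ablation libraries, was not tested.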

How the results depend on the processing

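Of the gasdermin fold changes as recomputed, 390 kept direction and side of the threshold, 11 passed in addition, 12 no longer passed and 8 turned sign, all 8 uncalled and with a library left out. The 12 lost calls are those of Gsdma, Gsdma3 and Gsdmc between the control groups without 1 control library. The sign turned for Gsdma in K14 ablation without K14 ablation 2 (-0.77) or K14 control 2 (-0.70), for Gsdmd in K14 ablation without K14 ablation 2 (-0.73), between the ablation groups without K14 ablation 2 (0.60) and in the difference of effects without K14 ablation 1 (-0.24), and for Gsdmc2 between the control groups without Lrig1 control 2 (0.58) and in the difference without Lrig1 control 1 or Lrig1 ablation 2 (0.41 each). Over the left-out libraries these results ran over -0.77 to 1.31 for Gsdma and -0.73 to 1.49 for Gsdmd in K14 ablation, -1.63 to 0.60 for Gsdmd between the ablation groups and -0.24 to 1.99 for it in the difference, and -1.585 to 0.58 for Gsdmc2 between the control groups and -1.91 to 0.41 for it in the difference. Fits of only the groups compared called 4 gasdermin genes between the control groups, Gsdmd in addition (limma adjusted p = 0.0130), where 7323 of 17057 tested genes were called. DESeq2 called 1 in Lrig1 ablation and 1 for the difference of effects, both Gsdmc.

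Leaving out 1 library, the gasdermin calls ran over 0 to 1 in Lrig1 ablation (0 in the full fit), 0 to 0 in K14 ablation (0), 0 to 3 between the control groups (3), 0 to 1 between the ablation groups (0) and 0 to 1 for the difference (0). The pathway calls ran over 0 to 11 (4), 0 to 4 (0), 0 to 14 (7), 0 to 10 (0) and 0 to 5 (0) in the same order, and all genes called over 5 to 2498 (737), 0 to 740 (34), 1 to 3539 (1594), 0 to 4041 (121) and 0 to 2022 (36).

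All genes called in K14 ablation were 221 by DESeq2 and 0 in a fit of only the groups compared, which gave 170 in Lrig1 ablation, 7323 between the control groups and 0 between the ablation groups. Between the ablation groups they were 75 with no filter, 72 with a filter of 10 CPM and 666 by DESeq2. For the difference they were 83 with a pseudocount of 4, 5 with no filter, 2 with a filter of 10 CPM, 0 scaled by library totals and 303 by DESeq2. Pathway calls in Lrig1 ablation were 2 with no filter and 2 with only the groups compared. Between the control groups they were 4 with no filter and 30 with only the groups compared. DESeq2 gave 5 between the ablation groups and 1 for the difference. Scaling by library totals gave 551 higher and 365 lower in Lrig1 ablation, against 139 and 598, and 955 and 610 between the control groups, against 1183 and 411. It moved the median of all genes to 0.23, 0.11 and 0.19 in Lrig1 ablation, between the ablation groups and for the difference, and no gasdermin gene changed sign. The causes were not tested.

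The replicate numbers pair nothing that the labels name, and deviations of same-numbered libraries correlated by -0.0491 to 0.0838. With the replicate number as a block, genes called were 21 in K14 ablation and 1 for the difference, pathway calls were 2 in Lrig1 ablation and 4 between the control groups, and no gasdermin call changed. Gsdma2, Gsdmc3 and Gsdmc4, with 17, 6 and 6 reads, are too shallow for a test, and the Gsdma2 value given above leaves out counting error.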

Other observations

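Within K14, Gsdmd was highest in K14 ablation 2 (66.5 normalised reads) and lowest in K14 ablation 1 (13.4), with 24.4 and 21.7 in K14 control. The same order, with K14 ablation 2 above and K14 ablation 1 below both K14 control libraries, was found in 10 of the 42 tested pathway genes (23.8%) and in 11.7% of all 18140 tested genes; it was looked for after the values were seen and was not tested. The 10 were Casp4, Casp12, Chmp2a, Gbp2, Gbp3, Gbp5, Gbp7, Irf1, Irf2 and Zbp1, and Casp1 and Mlkl, for example, did not have it. Gbp2, a guanylate-binding protein that exposes bacterial lipopolysaccharide to caspase-11, had 31.8 and 3018 in K14 ablation, against 899 and 949 in K14 control. Gbp5 had 12.7 and 743, against 193 and 251, Irf1, a transcription factor of the interferon response, had 362 and 1804, against 759.7 and 817, and Casp4 had 99.1 and 332, against 321 and 299. None of these 4 genes nor Gsdmd passed in K14 ablation (limma adjusted p = 0.722 for Gbp2, 0.795 for Gbp5, 0.986 for Irf1, 0.575 for Casp4 and 0.848 for Gsdmd). In the Lrig1 libraries the genes went different ways. Gbp2 had 37.3 and 43.8 in Lrig1 ablation, below the 148 and 211 of Lrig1 control, whereas Irf1 had 261 and 274 in Lrig1 ablation, above the 196 and 216 of Lrig1 control, as Gsdmd did.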
